A study of Mus musculus with 4 samples.

Results

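The 33 genes described here encode the synaptic vesicle membrane, the SNARE fusion machinery and the active zone, and were chosen by name from a table of 20032 genes. All 33 were found in it under their symbols, and all passed the filter of a mean of at least 1 FPKM (fragments scaled by transcript length and library size) over the 4 libraries. Total RNA came from olfactory bulbs of mice at postnatal day 11, and the mice had mixed C57BL/6J, 129S6 and CD1 ancestry. The comparison was between 2 groups of 2 libraries each. The controls were littermates without Cre. The DCKO (double conditional knockout) mice carried Sp8 Flox/Flox, Sp9 Flox/Flox and the Dlx5/6-CIE transgene, in which a Dlx5/6 enhancer active in GABAergic precursors drives Cre. The floxed alleles of the controls are not stated, and whether a library came from 1 animal or several is not stated either, so p-values describe the spread among 4 libraries, which may be technical. In RNA of a whole tissue, fewer cells of a type and less RNA per cell cannot be told apart.

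Neurotransmitter is stored in synaptic vesicles, which dock and are primed at the active zone and fuse with the plasma membrane when calcium enters the terminal. Fusion is driven by SNARE proteins, VAMP on the vesicle and syntaxin and SNAP-25 on the plasma membrane, and is controlled by complexins, Munc13, RIM and calcium-binding sensors. Most of these proteins come in small families of paralogs that different neuron types use in different proportions. In the olfactory bulb, granule cells and periglomerular cells are GABAergic interneurons, and mitral and tufted cells are glutamatergic, so that both kinds of neuron contribute presynaptic transcripts.

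The scaled fragment counts that the authors deposited summed to between 14632502 and 15400982 per library. Of the targeted transcription factors, Sp8 was at 32.0 and 26.7 FPKM in controls 1 and 2, and at 1.68 and 2.03 FPKM in DCKO 1 and 2. Sp9 was at 24.0 and 30.7 FPKM, against 0.0674 and 0.236 FPKM. The FPKM of 8 markers of GABAergic neurons summed to 704 and 659.6 in the controls, against 154 and 198 in DCKO, and all 8 passed the test as lower. The sum over 9 markers of mitral and tufted cells was 745 and 812 in the controls, against 1615 and 1443 in DCKO, and all 7 of them that were tested were higher. Of 10 genes listed as pan-neuronal markers, 3 were lower and 2 higher. Their log2 changes had both signs, 3 above 0 and 7 below, so the list did not move together. Markers of astrocytes and of microglia were higher for 6 of 8 genes each. Those of endothelial and mural cells were higher for 2 of 8. Over all tested genes, 14.3% were lower and 13.0% higher. Markers of oligodendrocytes were called for 0 of 8 by limma (1 at an unadjusted p below 0.05), with sums of 672, 883, 1124 and 662 FPKM in controls 1 and 2 and DCKO 1 and 2. Markers of olfactory sensory neurons were called for 0 of 7 (1 unadjusted), with sums of 349, 117, 209.97 and 169 FPKM. In the lists other than the GABAergic one, the most abundant gene had a log2 change of 0.91 (Slc17a7), -0.26 (Tubb3), 0.49 (Slc1a3), 0.90 (C1qa), -0.21 (Mbp), 0.37 (Cldn5) and 0.41 (Gng13). Gng13 was the 1 of 7 tested sensory neuron markers above 0, and the median of that list was -0.80. The oligodendrocyte list had a median of 0.07, with 5 of 8 above 0. None of the markers was at 0 in all 4 libraries, and the part of these cell types in the results below was not tested. DCKO 1 was the only library with Xist (77.0 FPKM, against 0.0252 to 0.0355 in the others) and was listed at 0 for Ddx3y, Eif2s3y, Kdm5d and Uty, which are Y-linked.

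The presynaptic genes moved in both directions, and in some families paralogs passed the test in opposite directions. In the limma test of log2(FPKM + 1), DCKO minus control, 7 of the 33 genes were lower and 5 higher at a Benjamini-Hochberg adjusted p below 0.05 over 13434 tested genes. These are 21.2% and 15.2% of the members, against 14.3% and 13.0% of all tested genes. The genes that fell were Synpr, Stxbp6, Sv2c, Unc13a, Doc2a, Syn3 and Sv2a. Those that rose were Doc2b, Sv2b, Rims1, Pclo and Unc13c. The other 21 did not pass, and 14 of the 33 had changes smaller than 0.25 on the log2 scale. The median log2 change of the members was -0.09, beside -0.02 for all tested genes, and the median size of a change was 0.33 beside 0.23. In 24 members (72.7%) the groups did not overlap, a share near the background of 71.5%. Of these, 16 were lower (48.5% of the members, against 37.6% of all tested genes) and 8 higher (24.2%, against 33.9%). The summed FPKM of the 33 genes was 2702 and 2859 in the controls, against 2851 and 2339.8 in DCKO, so the summed level of DCKO 2 lay below the other libraries. In 21 of the 33 the value of DCKO 1 was above that of DCKO 2. The calls depended on single libraries. With each library left out in turn, the number of members called changed. The numbers called lower and higher over all tested genes both fell in each of these fits. Those of the members fell in some of these fits and rose in others.

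**Figure D1:**
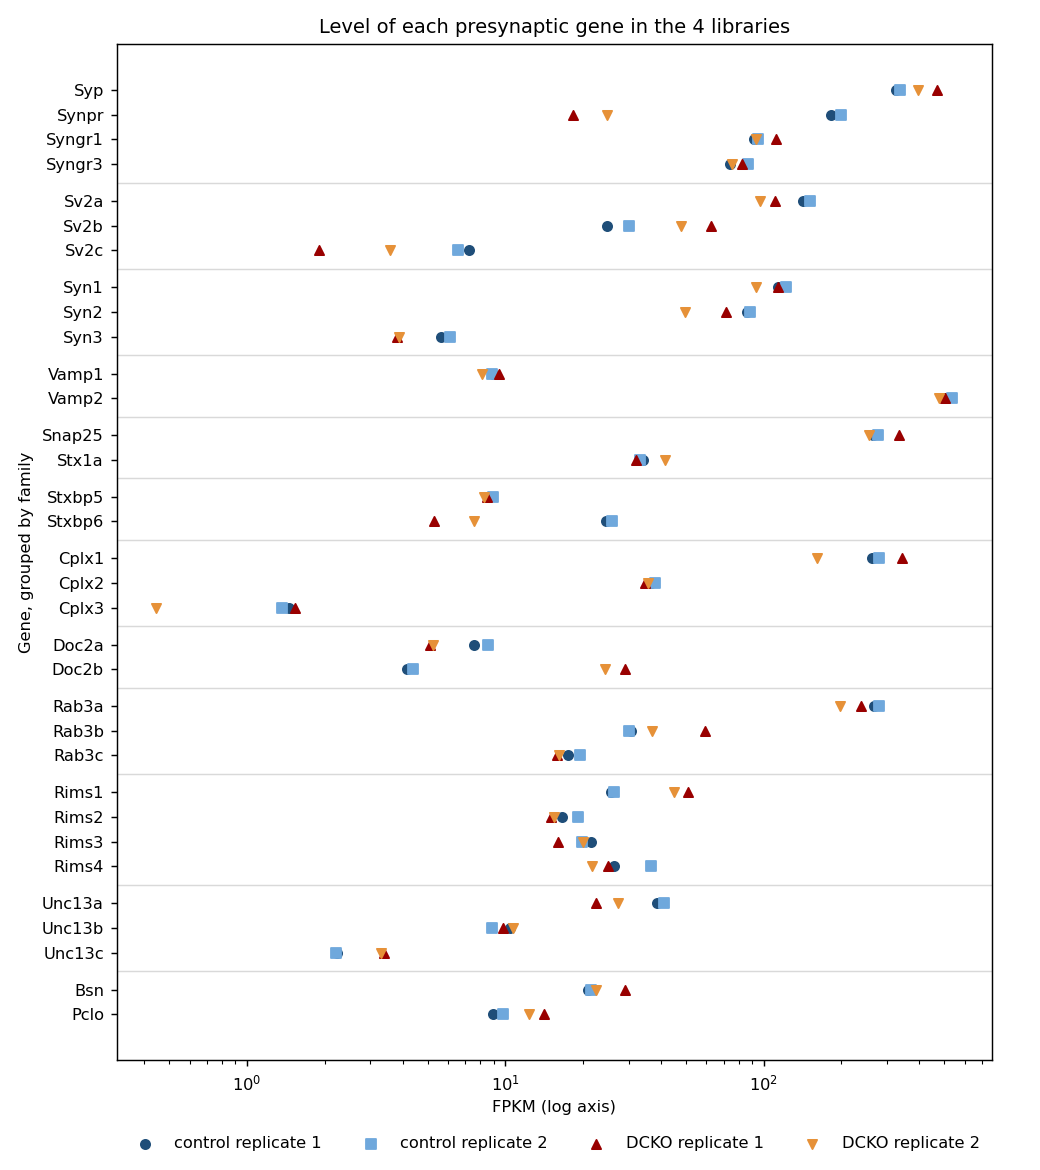
FPKM of each of the 33 genes (log axis) in control replicates 1 and 2 and DCKO replicates 1 and 2, 1 point per library, with genes grouped by family. Synpr and Stxbp6 lie far to the left in both DCKO libraries and Doc2b far to the right, while Vamp1, Vamp2, Stxbp5 and Cplx2 stay together.

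**Figure D2:**
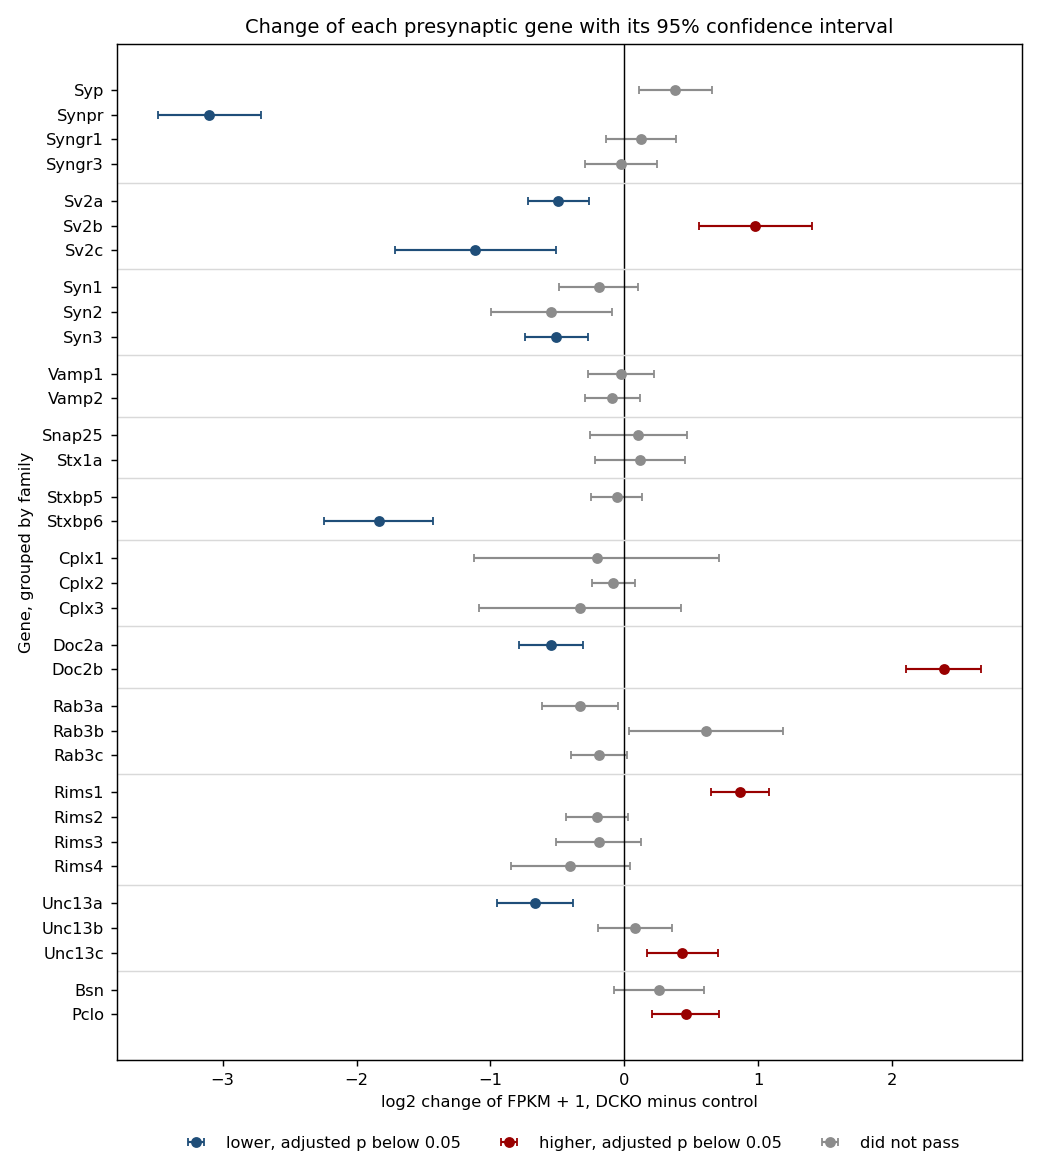
log2 change of FPKM + 1 (DCKO minus control) of each gene with its 95% confidence interval from the limma fit, coloured by whether the adjusted p was below 0.05. The interval of Cplx1 is the widest, from -1.12 to 0.71, and its DCKO libraries lay on opposite sides of the controls.

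The sequences before the starts of the genes that changed most are shown because they are the stretches in which promoter-proximal sites of a transcription factor would lie. RefSeq (GRCm38.p6) gave promoter entries for 25 of the 33 members. The 250 bases before the start are printed for the 3 lower and 3 higher members of largest change that had an entry (Doc2b had none), from the most upstream start where there were several. Capitals mark the GC box GGGCGG, the sequence that Sp factors are best known to bind, searched on both strands (CCGCCC on the other).
Synpr promoter (chr14:13284530-13284779, + strand): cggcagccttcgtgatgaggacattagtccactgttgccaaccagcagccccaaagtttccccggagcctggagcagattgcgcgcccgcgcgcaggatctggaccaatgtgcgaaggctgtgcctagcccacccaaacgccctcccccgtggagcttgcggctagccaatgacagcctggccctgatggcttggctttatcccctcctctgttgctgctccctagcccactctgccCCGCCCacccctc
Stxbp6 promoter (chr12:45074484-45074733, - strand): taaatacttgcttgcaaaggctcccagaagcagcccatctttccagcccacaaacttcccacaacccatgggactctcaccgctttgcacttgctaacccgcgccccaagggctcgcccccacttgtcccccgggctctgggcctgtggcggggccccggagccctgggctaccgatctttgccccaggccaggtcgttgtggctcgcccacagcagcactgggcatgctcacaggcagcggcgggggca
Sv2c promoter (chr13:96132578-96132827, - strand): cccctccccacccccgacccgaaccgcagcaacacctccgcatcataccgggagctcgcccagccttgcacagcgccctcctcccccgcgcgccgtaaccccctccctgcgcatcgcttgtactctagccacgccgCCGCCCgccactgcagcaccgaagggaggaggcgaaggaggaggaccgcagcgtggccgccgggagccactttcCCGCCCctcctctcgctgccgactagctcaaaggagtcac
Sv2b promoter (chr7:75309263-75309512, - strand): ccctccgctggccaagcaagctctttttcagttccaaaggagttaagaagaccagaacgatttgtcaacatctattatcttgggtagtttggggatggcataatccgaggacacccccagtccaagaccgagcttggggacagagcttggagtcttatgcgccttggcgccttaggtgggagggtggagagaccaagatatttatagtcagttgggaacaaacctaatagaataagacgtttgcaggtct
Rims1 promoter (chr1:22806159-22806408, - strand): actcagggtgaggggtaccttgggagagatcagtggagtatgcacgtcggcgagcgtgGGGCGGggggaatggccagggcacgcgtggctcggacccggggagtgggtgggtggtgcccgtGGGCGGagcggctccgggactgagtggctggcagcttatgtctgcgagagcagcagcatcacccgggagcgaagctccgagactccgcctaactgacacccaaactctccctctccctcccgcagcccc
Pclo promoter (chr5:14514668-14514917, + strand): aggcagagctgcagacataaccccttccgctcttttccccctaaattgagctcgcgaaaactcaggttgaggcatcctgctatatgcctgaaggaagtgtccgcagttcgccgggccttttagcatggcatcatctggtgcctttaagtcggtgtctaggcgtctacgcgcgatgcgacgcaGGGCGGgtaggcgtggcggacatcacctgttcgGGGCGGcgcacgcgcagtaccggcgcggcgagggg
The motif was present once in the Synpr sequence and in 2 places each in those of Sv2c, Rims1 and Pclo, and these letters were not in the windows of Stxbp6 and Sv2b. GENCODE M21 puts the start of Stxbp6 at 45074709, inside its printed window. Most of that window therefore lies within the GENCODE gene, and most bases just before the GENCODE start were not searched. Over all member entries it was present in 19 of 31 (61.3%), against 32.7% of the 32851 promoters in the table. The median GC content was 60.8% in the member entries and 52.4% in all promoters. By direction, the motif was present in 4 of 6 entries of members that fell, 3 of 7 of members that rose and 12 of 18 of the rest. Entries are starts and not genes, and those of members that rose included several starts of Sv2b, each without the motif. The counts by direction are therefore not counts of genes, and a difference between directions was not tested. A match is a run of letters and not a shown binding site.

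The vesicle membrane family of synaptophysin, synaptoporin and the synaptogyrins, all tetraspanning proteins of the vesicle, held the largest decrease, that of Synpr, while its other 3 members did not pass. Synpr (synaptoporin, chromosome 14, 13284780 to 13616340, + strand, GRCm38) was at 182 and 199 FPKM in the controls, against 18.3 and 24.6 FPKM in DCKO. Both DCKO libraries were far below both controls. Its mean was 8.85-fold lower (log2 change -3.10, SE 0.15, limma adjusted p = 0.00111). Syp (synaptophysin, X chromosome, 7638471 to 7653256, + strand) was at 326 and 338 FPKM in the controls, against 471 and 398 FPKM in DCKO. The groups of Syp did not overlap, but it missed the threshold (log2 change 0.38, 95% confidence interval 0.11 to 0.65, limma adjusted p = 0.0536). It passed with a filter of 5 FPKM (limma adjusted p = 0.0436) and on scaled counts (0.0261). The log2 change of Syp was 0.26 without DCKO replicate 1 and 0.50 without DCKO replicate 2. The highest Syp value was that of DCKO 1, the library with Xist, and the part of sex in this was not tested. Syngr1, at 91.8 and 95.1 FPKM in the controls, against 112 and 93.4 FPKM in DCKO, and Syngr3, at 73.8, 86.9, 82.6 and 75.3 FPKM in the same order, overlapped between groups. Their 95% confidence intervals were -0.14 to 0.39 and -0.29 to 0.25 on the log2 scale, so changes of about that size were not detectable.

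As FPKM is scaled by length, each gene can be given as a share of the summed FPKM of its family. Only genes among the 33 were counted, so close paralogs outside the 33 are left out of these sums. Synpr made up 27.0% and 27.6% of its family in the controls, against 2.68% and 4.17% in DCKO. Syp made up 48.4% and 47.0% in the controls, against 68.9% and 67.3% in DCKO. The summed level of the 4 genes was 673 and 718 FPKM in the controls, against 683 and 590.9 FPKM in DCKO, so DCKO 1 lay between the controls and DCKO 2 below them. For every share the test was a two-sided exact permutation test over the 4 libraries. With 2 against 2 the exact permutation test cannot go below p = 0.33, and every share described in this way had that p unless its groups overlapped.

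SV2 proteins are vesicle glycoproteins with a transporter-like fold that support priming and calcium-triggered release, and SV2A is best known as the binding site of levetiracetam. The 3 genes split: Sv2a and Sv2c fell and Sv2b rose. Sv2a (chromosome 3, 96181151 to 96195521, + strand) was at 143 and 151 FPKM in the controls, against 111 and 97.2 FPKM in DCKO (log2 change -0.49, SE 0.09, limma adjusted p = 0.0198). Sv2c (chromosome 13, 95954594 to 96132577, - strand) was at 7.24 and 6.56 FPKM against 1.90 and 3.59 FPKM, a 2.51-fold lower mean (log2 change -1.11, SE 0.23, limma adjusted p = 0.0280). Sv2b (chromosome 7, 75114894 to 75309262, - strand) was at 24.8 and 30.2 FPKM against 62.8 and 47.9 FPKM, a 2.02-fold higher mean (log2 change 0.98, SE 0.16, limma adjusted p = 0.0161). The groups overlapped for none of the 3. Sv2a lost its call without control replicate 2 (adjusted p = 0.0808), and Sv2c lost it with no filter on low values (0.0669). Sv2b made up 14.2% and 16.1% of the family in the controls, against 35.8% and 32.2% in DCKO, while Sv2a went from 81.7% and 80.4% to 63.1% and 65.4%.

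Synapsins coat the vesicle surface and tether the reserve pool. Syn3 fell, and the others did not pass. Syn3 (chromosome 10, 86055125 to 86498896, - strand) was at 5.64 and 6.13 FPKM in the controls, against 3.81 and 3.87 FPKM in DCKO (log2 change -0.51, SE 0.09, limma adjusted p = 0.0194). Its groups were well apart, but the call did not survive the removal of control replicate 1 (adjusted p = 0.0618), control replicate 2 (0.115) or DCKO replicate 1 (0.0549). Timp3, which lies inside Syn3 on the opposite strand, moved the other way, from 34.6 and 32.0 FPKM to 61.8 and 52.3 FPKM, and the strand setting of the counting is not given in the sources used here. Syn2 was at 86.4 and 88.6 FPKM in the controls, against 71.4 and 49.7 FPKM in DCKO (log2 change -0.55, limma adjusted p = 0.0756). The Syn2 groups did not overlap, but its DCKO libraries differed more from each other than DCKO 1 did from the controls. Leaving out DCKO replicate 1 (adjusted p = 0.0151) or 2 (0.0461) brought Syn2 past the threshold, with 1 DCKO library left in each case. Syn1, which is X-linked, was at 114 and 122 FPKM against 114 and 93.4 FPKM (95% confidence interval of the log2 change -0.48 to 0.10).

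Of the 4 SNARE genes, 0 passed the limma test (0 at an unadjusted p below 0.05). Vamp2, the main vesicle SNARE, had the highest level of the 33, at 506 and 538 FPKM in the controls, against 502 and 477 FPKM in DCKO (log2 change -0.09, 95% confidence interval -0.30 to 0.12). Its paralog Vamp1 was at 8.98, 8.91, 9.48 and 8.15 FPKM in controls 1 and 2 and DCKO 1 and 2, and made up 1.63% to 1.85% of the pair in each library. Snap25, the plasma membrane SNARE cleaved by botulinum toxin A, was at 266 and 277 FPKM against 333 and 255 FPKM (95% confidence interval -0.26 to 0.47). The DCKO values of Snap25 lay on either side of the controls. Stx1a (syntaxin-1A) was at 34.0 and 33.1 FPKM against 32.1 and 41.4 FPKM (-0.22 to 0.45).

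Among the SNARE regulators that bind syntaxin, Stxbp6 fell and Stxbp5 did not pass. Stxbp6 (amisyn, chromosome 12, 44852484 to 45074709, - strand) carries a VAMP-like coiled coil that can enter SNARE complexes without a membrane anchor. It was at 24.5 and 25.9 FPKM in the controls, against 5.31 and 7.55 FPKM in DCKO. This was a 3.92-fold lower mean (log2 change -1.84, SE 0.16, limma adjusted p = 0.00358). Both DCKO libraries were below both controls by more than the spread within a group. Stxbp5 (tomosyn-1), also a protein with a VAMP-like motif, was at 8.61, 8.93, 8.48 and 8.30 FPKM in controls 1 and 2 and DCKO 1 and 2 (95% confidence interval of the log2 change -0.25 to 0.13). Of the summed level of the pair, Stxbp6 made up 74.0% and 74.4% in the controls, against 38.5% and 47.6% in DCKO. The tomosyn paralog Stxbp5l, outside the 33, fell from 8.15 and 8.23 FPKM to 5.71 and 4.89 FPKM (log2 change -0.55, limma adjusted p = 0.0192), a call that did not survive the removal of control replicate 1 (adjusted p = 0.0676) or 2 (0.0785).

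Complexins clamp and then promote SNARE-driven fusion. By limma 0 of the 3 passed (0 at an unadjusted p below 0.05), and Cplx1 and Cplx3 were the members in which the DCKO libraries disagreed most by ratio. Cplx1 was at 263 and 279 FPKM in the controls, against 343 and 160.5 FPKM in DCKO, 1 library above both controls and 1 below both. Its log2 change was -0.21 (95% confidence interval -1.12 to 0.71, limma adjusted p = 0.684), and the sign rested on 1 library: it was -0.75 without DCKO replicate 1 (adjusted p = 0.0196) and 0.34 without DCKO replicate 2 (0.0494). Cplx3, a complexin best known from retinal ribbon synapses, was at 1.46 and 1.37 FPKM against 1.53 and 0.445 FPKM, from 76.6, 72.3, 82.1 and 23.6 scaled counts. Cplx2 was at 36.8 and 37.8 FPKM against 34.6 and 35.8 FPKM, with a narrow interval (-0.24 to 0.08 on the log2 scale). Cplx4 was below the filter, at 0 to 0.027 FPKM. In Doc2g, outside the 33, the DCKO libraries also lay on either side of the controls, at 179.8 and 178 FPKM in the controls, against 211 and 123 FPKM in DCKO.

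Doc2 proteins are soluble calcium sensors with a pair of C2 domains that act in spontaneous and asynchronous release. The pair changed places. Doc2b (chromosome 11, 75768966 to 75796049, - strand) was at 4.17 and 4.40 FPKM in the controls, against 29.2 and 24.3 FPKM in DCKO. This was a 6.24-fold higher mean (log2 change 2.39, SE 0.11, limma adjusted p = 0.000959) and the largest increase among the 33. Every DCKO value of Doc2b was several times every control value. Doc2a (chromosome 7, 126847416 to 126852705, + strand) was at 7.54 and 8.54 FPKM against 5.11 and 5.25 FPKM (log2 change -0.55, SE 0.09, limma adjusted p = 0.0173). The Doc2a call did not survive the removal of control replicate 2 (adjusted p = 0.0971) or DCKO replicate 1 (0.0564). Ino80e, which overlaps Doc2a on the opposite strand, was at 15.7 to 17.4 FPKM in all 4 libraries. Doc2b made up 35.6% and 34.0% of the pair in the controls, against 85.1% and 82.2% in DCKO. This was the largest shift of any of the 12 families, and the summed level went from 11.7 and 12.9 FPKM to 34.3 and 29.5 FPKM. These shares leave out Doc2g, which lies outside the 33. Doc2g was at 179.8 and 178 FPKM in the controls, against 211 and 123 FPKM in DCKO. Its level was above the sum of the pair in each library, so the shares are not shares of all Doc2 RNA.

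Rab3 proteins are vesicle GTPases that recruit RIM and other effectors before fusion, and 0 of their 3 genes passed the limma test (2 at an unadjusted p below 0.05). Rab3a, the main isoform of the brain, was at 268 and 279 FPKM in the controls, against 238 and 198 FPKM in DCKO (log2 change -0.33, limma adjusted p = 0.0803). Its log2 change was -0.47 without DCKO replicate 1 and -0.20 without DCKO replicate 2. Rab3b was at 30.6 and 30.2 FPKM against 59.3 and 36.9 FPKM (log2 change 0.61, limma adjusted p = 0.102). Its log2 change was 0.27 without DCKO replicate 1 and 0.94 without DCKO replicate 2. The groups did not overlap for either gene, and for both the DCKO libraries lay further apart than the controls. Rab3c was at 17.4 and 19.5 FPKM against 15.9 and 16.2 FPKM (95% confidence interval of the log2 change -0.40 to 0.02). The share of Rab3a in the family was 84.8% and 84.9% in the controls, against 76.0% and 78.8% in DCKO.

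RIM proteins organise the active zone and tether calcium channels and vesicles. Rims1 rose, and Rims2, Rims3 and Rims4 did not pass. Rims1 (chromosome 1, 22286251 to 22805994, - strand) was at 25.6 and 26.2 FPKM in the controls, against 51.0 and 45.0 FPKM in DCKO. This was a 1.85-fold higher mean (log2 change 0.86, SE 0.08, limma adjusted p = 0.00478). Both DCKO values were well above both controls. Rims2, which shares the long domain structure with Rims1, was at 16.5 and 19.0 FPKM against 15.1 and 15.4 FPKM (log2 change -0.21, limma adjusted p = 0.145). Of the short RIMs, Rims3 was at 21.5 and 19.7 FPKM against 16.0 and 20.03 FPKM. Rims4 was at 26.3 and 36.6 FPKM against 24.9 and 21.7 FPKM (log2 change -0.40, limma adjusted p = 0.140). Its log2 change was -0.63 without control replicate 1 and -0.17 without control replicate 2. Rims1 made up 28.5% and 25.8% of the family in the controls, against 47.7% and 44.1% in DCKO.

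The order of levels among the RIMs depends on the transcript length that entered the FPKM. The length implied by scaled count and FPKM was 494 to 535 bases for Rims4 and 778 to 852 bases for Rims3, while their longest coding transcripts in GENCODE M21 have 4962 and 6505 bases. With scaled counts divided by the longest coding transcript instead, the share of Rims1 in the family was 19.9% in the controls and 35.6% in DCKO, so the direction was the same. Outside the RIMs, Syn3 had a mismatch in the other direction. Its implied length was 13148 to 13776 bases, while its longest coding transcript has 4006 bases. The level of Syn3 beside Syn1 and Syn2 thus also depends on the length used. The implied length of each member differed little between groups. The ratio of DCKO to control ran from 0.966 to 1.05 relative to the median tested gene, so the changes above were seen at nearly constant implied length.

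Munc13 proteins prime vesicles by opening syntaxin, and of their 3 genes Unc13a fell, Unc13c rose and Unc13b did not pass. Unc13a, the main priming factor of glutamatergic terminals (chromosome 8, 71624417 to 71671757, - strand), was at 38.7 and 41.1 FPKM in the controls, against 22.4 and 27.3 FPKM in DCKO (log2 change -0.67, SE 0.11, limma adjusted p = 0.0160). Unc13c (Munc13-3, best known from cerebellar granule cells, chromosome 9, 73479422 to 73968966, - strand) was at 2.24 and 2.21 FPKM against 3.39 and 3.31 FPKM (log2 change 0.43, SE 0.10, limma adjusted p = 0.0373). The groups were apart for both genes. The Unc13c call was lost with each of the 4 libraries left out in turn (adjusted p from 0.0711 to 0.153) or with no filter (0.0666). Unc13b was at 10.5 and 8.87 FPKM against 9.76 and 10.7 FPKM, with overlapping groups (95% confidence interval of the log2 change -0.19 to 0.35). Unc13a made up 75.3% and 78.8% of the family in the controls, against 63.0% and 66.0% in DCKO.

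Piccolo and Bassoon are very large scaffold proteins of the active zone. Pclo rose (chromosome 5, 14514918 to 14863459, + strand), from 8.94 and 9.80 FPKM to 14.1 and 12.4 FPKM (log2 change 0.46, SE 0.10, limma adjusted p = 0.0288). Its call did not survive the removal of control replicate 1 (adjusted p = 0.116), control replicate 2 (0.0647) or DCKO replicate 1 (0.0734), or of the filter (0.0573). Bsn was at 20.9 and 21.4 FPKM in the controls, against 29.0 and 22.4 FPKM in DCKO (log2 change 0.26, limma adjusted p = 0.192). The log2 change of Bsn was 0.08 without DCKO replicate 1 and 0.44 without DCKO replicate 2. Both genes were higher in both DCKO libraries than in either control, and for Bsn the excess in DCKO 2 was small beside the gap between the DCKO libraries.

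**Figure D3:**
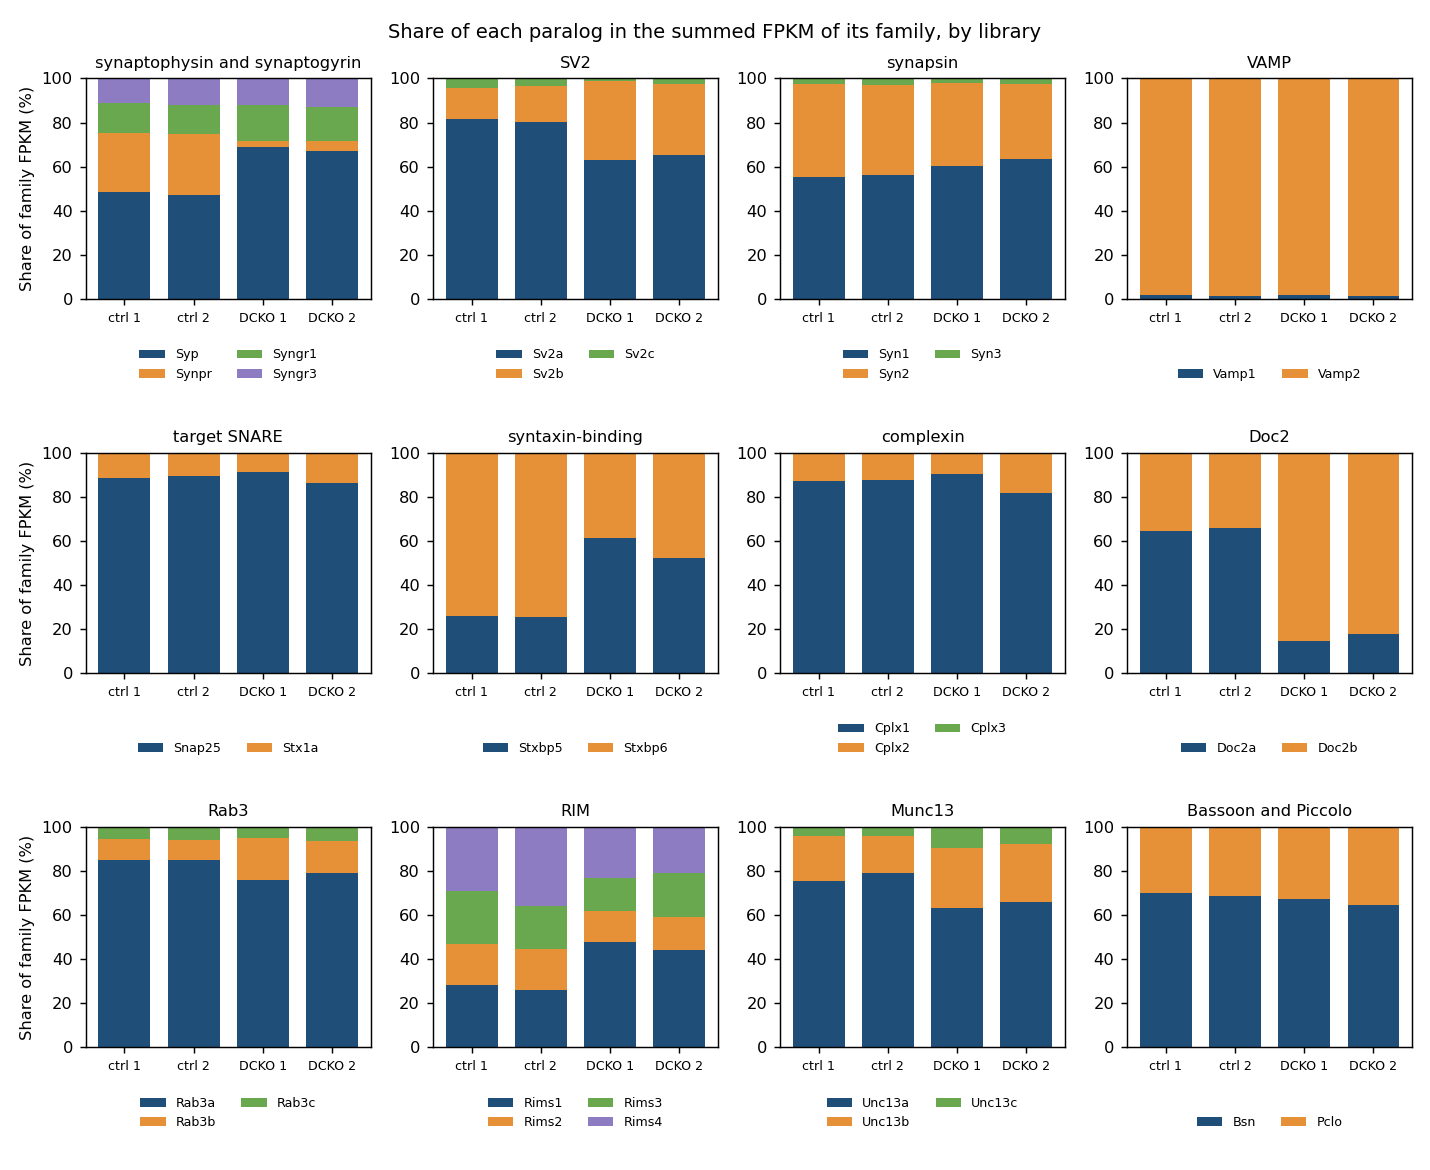
Share of each gene in the summed FPKM of its family (%), 1 bar per library for the 12 families. The plasma membrane SNAREs and the syntaxin-binding pair were grouped by role, so their shares are not shares among paralogs. The bars shift between control and DCKO for Doc2, the syntaxin-binding pair, the synaptophysin family, SV2 and RIM, and hardly for VAMP, where Vamp2 makes up 98.2% of the DCKO mean and 98.3% of the control mean.

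In 3 of the 12 families, SV2, Doc2 and Munc13, 1 member passed as lower and another as higher. SV2 did so with each library left out. Doc2 did not without control replicate 2 or DCKO replicate 1, and Munc13 failed to with each of the 4 libraries left out in turn. The number of such families was then 1 without control replicate 2 or DCKO replicate 1, and 3 without control replicate 1 (SV2, Doc2 and RIM) or DCKO replicate 2 (SV2, Doc2 and the synaptophysin family). In 4 families, VAMP, the plasma membrane SNAREs, complexins and Rab3, no member passed. The difference in change between paralogs was tested only through the shares, where 2 against 2 libraries cannot pass the threshold.

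A wider list of 93 presynaptic genes, of which 92 were in the table and 89 were tested, also held genes of both directions. In this list 13 genes were lower and 19 higher, 36.0% in all, against 27.3% of all tested genes. Its median log2 change was 0.12. Of 20 other vesicle membrane and trafficking genes, 3 fell and 6 rose. The largest changes there were in Slc32a1, the vesicular GABA transporter (109.6 and 112 FPKM in the controls, 11.7 and 15.5 FPKM in DCKO, log2 change -2.95), and in the Rab3 effector rabphilin, Rph3a (3.52 and 7.02 FPKM against 16.4 and 15.9 FPKM, log2 change 1.51, limma adjusted p = 0.0201). The Rph3a call was lost without DCKO replicate 1 (adjusted p = 0.0827) or 2 (0.0721) and with no filter (0.0526).

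Of 18 active zone genes outside the 33, 4 fell and 7 rose (61.1%). Over all tested genes the share was 27.3%. With each library left out in turn the share called in this list was lower, and so was the share over all tested genes. Tspoap1 (RIM-BP1, listed under its older symbol Bzrap1) was at 41.2 and 36.4 FPKM in the controls, against 16.0 and 17.3 FPKM in DCKO (log2 change -1.17). The related RIM-binding protein gene Rimbp2 was at 9.58 and 11.7 FPKM against 5.34 and 4.86 FPKM (log2 change -0.93, limma adjusted p = 0.00882). The RIM-binding proteins link RIM to calcium channels, and both genes fell while Rims1 rose. The ELKS scaffold genes rose: Erc2, from 17.7 and 19.0 FPKM to 29.5 and 26.2 FPKM (log2 change 0.58), was the gene of largest increase, and Erc1 had a log2 change of 0.44 (limma adjusted p = 0.0224), lost without control replicate 1 (0.1003), control replicate 2 (0.0634) or DCKO replicate 2 (0.0530).

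Of 25 other SNARE and assembly genes, 2 fell, Stxbp5l among them, and 4 rose, led by Vamp3, a VAMP also used outside neurons (18.3 and 16.9 FPKM in the controls, 25.7 and 29.7 FPKM in DCKO, log2 change 0.63). Without control replicate 2 fewer genes of this list were called, and fewer over all tested genes. Of 26 genes of vesicle endocytosis, 4 fell and 2 rose (23.1%). The neuronal dynamin gene Dnm3 fell from 15.7 and 15.1 FPKM to 8.63 and 7.10 FPKM (log2 change -0.89), and Synj2, a phosphatase of vesicle uncoating, rose from 2.27 and 2.24 FPKM to 4.51 and 4.22 FPKM (log2 change 0.72). The limma adjusted p of Stxbp5l, Vamp3, Dnm3 and Synj2 ran from 0.00772 to 0.0192.

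**Figure D4:**
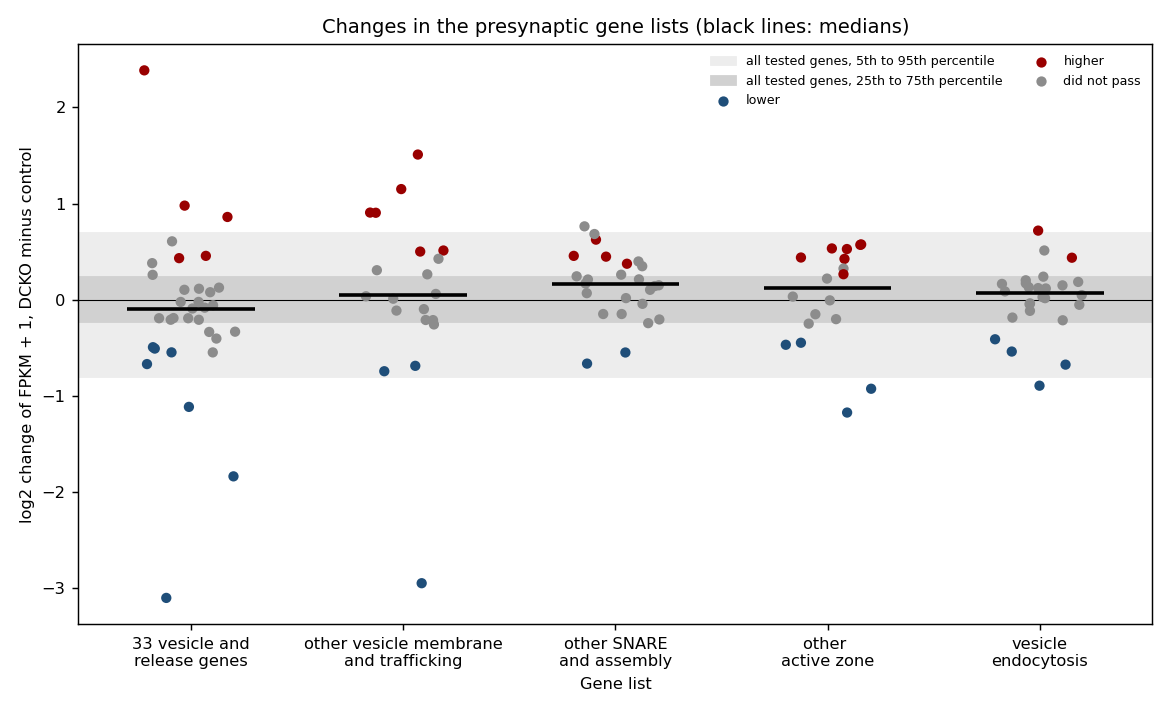
log2 change of FPKM + 1 (DCKO minus control) of each tested gene in the 33 and in 4 other presynaptic lists, coloured by call, with black lines at the medians and grey bands for all tested genes. The medians of all 5 lists lie between -0.09 and 0.17, and single genes such as Synpr and Doc2b stand far outside the bands.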

How the data were processed

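Members and lists were chosen with earlier results of these data known. The submitters' processing notes list TopHat, Cufflinks 2.1.1 and the build GRCm38.p4. Annotation and strandedness: not given in the sources used here. FPKM columns were deposited as the authors' own values. The deposited count columns, called scaled counts and treated as a signal, are not whole numbers: 98.7% to 98.9% of values lay within 0.05 of whole multiples of 1 step per library, and how the authors scaled them is not given. No count model was applied. Limma 3.58.1 in R 4.3.3 was fitted to log2(FPKM + 1), with an intensity trend, on 13434 genes averaging at least 1 FPKM over the libraries. A log2 change on this scale understates the change of low genes. The model was also run on simulated data with normal errors drawn from its own fitted variances. That run cannot show that the threshold holds in the real data, and no result rests on it. Every member was named; of the other lists, the called gene of largest change in each direction and close paralogs of members, and of each marker list the most abundant gene. Some genes that this rule names are not reported here. Of the wider presynaptic list, Vamp7 was not matched. Coordinates are from GENCODE M21. Genes overlapping on the opposite strand are uncertain. Alternatives covered the pseudocount, filter, scaling, variance trend, replicate block, each library left out and scaled counts; one on transcript length was chosen after seeing the data.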

Additional observations from a re-analysis of the deposited data

How the results depend on the processing

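Of 425 log2 changes of members recomputed under alternatives, 383 kept their direction and their side of the threshold. Doc2b, Rims1, Stxbp6, Sv2b, Synpr and Unc13a kept their call in every alternative run. With each library left out in turn, the members called lower numbered 4 to 8 and those called higher 3 to 8. Over all genes, 1030 (without control replicate 1) to 1875 were lower and 806 (without control replicate 2) to 1384 higher, against 1926 and 1747 with all 4 libraries. A lone library was assumed to vary like the other group. With no filter, 3 members were higher. The replicate numbers pair nothing in the labels, and the deviations of same-numbered libraries had a correlation of -0.021. With the replicate block, 3 members were higher and 7 lower, and Pclo and Unc13c lost their calls. Some signs turned, and the cause was not tested. With each library left out, the log2 change ran from -0.00014 to 0.25 for Syngr1, from -0.14 to 0.094 for Syngr3, from -0.12 to 0.075 for Vamp1, from -0.088 to 0.30 for Snap25, from -0.064 to 0.29 for Stx1a, from -0.029 to 0.19 for Unc13b, from -0.75 to 0.34 for Cplx1, from -0.74 to 0.069 for Cplx3 and from -0.53 to 0.24 for Doc2g. Without DCKO replicate 2, Syngr3 was at 0.044. Quantile normalization gave 0.0064 for Syngr3 and 0.022 for Vamp1, and scaled counts gave 0.053 for Syngr3, 0.034 for Vamp1 and 0.017 for Cplx2. With each library left out, differences in shares ran from -0.0090 to 0.17 percentage points for Vamp1, from -2.93 to 2.24 for Snap25 and from -2.91 to 6.14 for Cplx2. With scaled counts per longest coding transcript, the share tracked in each of the 12 families kept its direction. With 2 libraries a group, differences smaller than the confidence intervals were not detectable, and Cplx3 rested on as few as 23.6 scaled counts in a library.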
